A study of Saccharomyces cerevisiae with 2 samples.

Results

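The machinery that imports proteins into mitochondria and folds them there was described as 32 genes of Saccharomyces cerevisiae, chosen by name as subunits of known complexes. The rule names genes and holds no measured value, but it was drawn up with earlier results of these data known. All 32 were among the 4685 genes of the deposited table, and all 32 were among the 4642 genes analysed, whose mean of both levels was at least 5 RPKM. RPKM is reads scaled to gene length and to library size. The cells were haploid laboratory yeast of strain BY4741, grown to mid-log phase in YPD, a rich glucose medium. One group was RNA-seq of cytoplasmically enriched RNA depleted of ribosomal RNA, and the other was ribosome profiling, which sequences the mRNA fragments that ribosomes protect. Both groups share strain, medium and growth phase, and each had 1 library. No value below therefore has a replicate error or a test, and the depth of the libraries is unknown.

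Nearly all mitochondrial proteins are encoded in the nucleus and made on cytosolic ribosomes. The TOM complex of the outer membrane receives them, and sorting machineries then take over: TIM23 with the PAM motor for the matrix, TIM22 with the small TIM chaperones for carrier proteins, MIA for cysteine-rich proteins of the intermembrane space, and SAM for beta-barrels of the outer membrane. In the matrix the MPP peptidase removes presequences, and the Hsp60 chaperonin with its lid Hsp10 folds many of the proteins. On glucose yeast ferments, yet most of this machinery is essential for growth.

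Stretches of coding DNA show what unites the small TIMs, the family with the highest median of ribosome density (footprints per unit of RNA) among the 9 complexes compared. Each stretch runs 5′ to 3′ on the coding strand, from the first to the last cysteine codon of the paired CX3C motifs (2 cysteines 3 residues apart). Capitals mark the 4 cysteine codons of the motifs, which in the folded proteins pair in disulphide bonds introduced by Mia40. Coordinates are those of assembly R64 of the reference genome, the assembly that sacCer3 names.
TIM8, chrX:677100-677174, plus strand: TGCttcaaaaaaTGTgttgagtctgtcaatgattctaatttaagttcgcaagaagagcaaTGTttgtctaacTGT
TIM9, chrV:117313-117387, plus strand: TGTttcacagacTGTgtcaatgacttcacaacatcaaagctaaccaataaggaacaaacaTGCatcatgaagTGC
TIM10, chrVIII:115707-115784, minus strand: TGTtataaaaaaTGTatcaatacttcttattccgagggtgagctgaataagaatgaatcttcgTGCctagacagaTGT
TIM12, chrII:427287-427367, minus strand: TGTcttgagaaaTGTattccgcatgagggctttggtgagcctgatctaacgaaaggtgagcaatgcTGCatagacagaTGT
TIM13, chrVII:858455-858517, plus strand: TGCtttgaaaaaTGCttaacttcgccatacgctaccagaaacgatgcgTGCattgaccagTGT

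The motif pairs are separated by 15 codons in TIM8 and TIM9, 16 in TIM10, 17 in TIM12 and 11 in TIM13. TIM12 holds 6 cysteine codons in all, and each of the others holds 4. A CX3C motif occurred at least 2 times in the translated sequence of these 5 members and of no other member, against 81 of the 4642 analysed genes (1.74%). MIA40, the oxidoreductase that inserts the disulphides, was the only member with a CPC motif, which 23 analysed genes hold. It was also the only member with at least 2 CX9C motifs, which 105 analysed genes (2.26%) hold. ERV1, the oxidase that regenerates Mia40, was the only member with a CXXC motif, which 16.1% of analysed genes hold.

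Start regions of members from the top, the middle and the bottom of the density range are shown next, since ribosomes begin there. Each holds the 9 bases before the start codon, the start codon in capitals and the next 18 bases.
TIM17, chrX:147092-147121, plus strand: gggagcgttATGtcagccgatcattcgaga
TOM7, chrXIV:493357-493386, plus strand: aaataaaccATGagtttcctaccatctttt
TIM9, chrV:117202-117231, plus strand: actgtaaagATGgacgcattgaactccaaa
TIM10, chrVIII:115881-115910, minus strand: tagaaaaacATGtctttcttaggtttcggt
TIM23, chrXIV:662904-662933, plus strand: cacacaatcATGtcgtggctttttggagat
SAM35, chrVIII:272618-272647, plus strand: tcgtgcacaATGgtaagttcattcagtgtt
TIM54, chrX:334256-334285, plus strand: caatagaccATGtcttctgaatcaggaaag

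The base 3 positions before the start codon was A in 24 of the 32 members (75.0%), against 61.4% of the analysed genes. Among all analysed genes the median density was 0.11 with A there, -0.10 with G, -0.32 with C and -0.33 with T. TIM17, the member with the highest density, has G, and TIM54, the member with the lowest, has A. Over the 32 members the median density was 0.69 with A (24 genes), 0.70 with C (2 genes), 0.36 with G (4 genes) and 0.19 with T (2 genes).

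Most of the machinery was expressed above the typical gene in both libraries. RNA was above the median gene's 49.6 RPKM for 28 members, and footprints were above the median gene's 39.4 RPKM for 29 members. Member RNA ran from 33.6 RPKM (SAM37) to 1144 RPKM (SSC1), with a median of 125.0 RPKM, and footprints ran from 28.7 RPKM (SAM37) to 1641 RPKM (SSC1), with a median of 188.3 RPKM. By RPKM times coding length, the 32 genes made up 0.777% of RNA and 0.959% of footprints over all genes in the table. SSC1 and HSP60 alone, the matrix Hsp70 and the chaperonin, made up 58.0% of the members' footprints and 54.7% of their RNA.

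**Figure D1:**
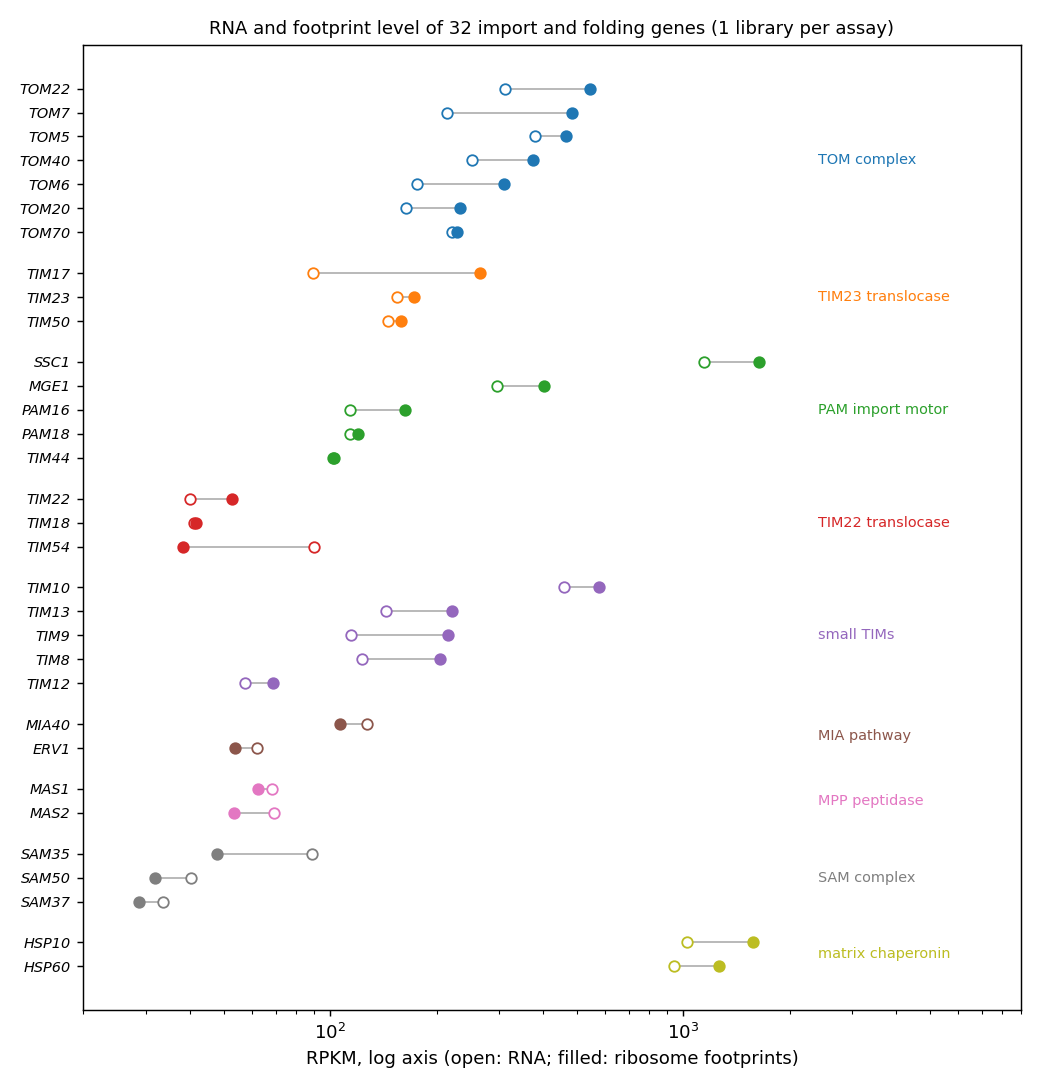
RNA (open circles) and footprints (filled circles) in RPKM on a log axis for each of the 32 genes, grouped by complex, with 1 library per assay. SSC1, HSP10 and HSP60 lie above 1000 RPKM in footprints, TIM10 is next at 575 RPKM, and TIM54 and SAM35 lie far to the left of their RNA.

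Ribosome density was taken as log2 of footprint RPKM over RNA RPKM, centred on the median of the 4642 genes, so 0 is the median gene and 1 is 2-fold more footprints per unit of RNA. The 32 members had a median of 0.59 on this scale, which is 1.51 times the median gene, and 28 of 32 lay above the median gene, where by construction 50% of all genes lie. The 6 past 2-fold above it were TIM17 (1.85), TOM7 (1.45), TIM9 (1.20), TOM6 (1.10), TOM22 (1.08) and TIM8 (1.02), and 6.79% of all genes passed that limit. None was more than 2-fold below it, where 13.1% of all genes lay. Centring changes these counts: relative to genes with a mean of at least 20 RPKM, 3 members were more than 2-fold above and 1 more than 2-fold below, and relative to total footprints over total RNA, 2 were above and 1 below. The shares of all genes past 2-fold were not worked out for these centrings.

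All 7 TOM genes lay above the median gene in RNA, in footprints and in density. TOM40 (YMR203W), the beta-barrel pore, had RNA at 251.2 RPKM, footprints at 375.9 RPKM and density at 0.87. TOM22 (YNL131W), the receptor that joins the pore to the other receptors, had the most footprints of the complex, with RNA at 313.3 RPKM, footprints at 543.4 RPKM and density at 1.08. The footprint level of the receptor for presequences was lower, with TOM20 (YGR082W) at 163.6 RPKM in RNA, 232.6 RPKM in footprints and 0.79 in density. Footprint levels of pore and receptors thus spanned 228.0 to 543.4 RPKM. TOM70 (YNL121C), the receptor for carrier precursors, had RNA at 221.0 RPKM, footprints at 228.0 RPKM and density at 0.33, the lowest of the complex.

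The small TOM subunits, single-helix proteins that stabilise the pore, had footprint levels near that of the pore. TOM5 (YPR133W-A) had RNA at 380.8 RPKM, the most of the complex, footprints at 464.1 RPKM and density at 0.57. TOM6 (YOR045W) had RNA at 176.6 RPKM, footprints at 311.2 RPKM and density at 1.10. In RNA these genes thus differed by more than in footprints: the 3 small TOMs spanned 2.16-fold in RNA and 1.55-fold in footprints. TOM7 (YNL070W) had RNA at 214.3 RPKM, footprints at 482.2 RPKM and density at 1.45.

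The channel genes of the TIM23 translocase had the opposite order in RNA and in footprints. TIM17 (YJL143W) and TIM23 (YNR017W) encode homologous inner membrane proteins of the presequence channel. TIM17 had 89.6 RPKM in RNA and 265.5 RPKM in footprints, whereas TIM23 had 154.4 RPKM in RNA and 172.4 RPKM in footprints. TIM17 (chromosome X, 147101 to 147577) was at the 99.8th percentile of density of all analysed genes, and its density exceeded that of TIM23 (0.44; chromosome XIV, 662913 to 663581) by 2.65-fold. TIM50 (YPL063W), the receptor of this translocase, was close to TIM23, with RNA at 145.8 RPKM, footprints at 158.5 RPKM and density at 0.41.

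The PAM motor pulls precursors into the matrix, and its subunits differed more in level than those of any other complex here. SSC1 (YJR045C), the Hsp70 that binds the incoming chain, had RNA at 1144 RPKM, footprints at 1641 RPKM and density at 0.81. MGE1 (YOR232W), its nucleotide exchange factor, had RNA at 297.4 RPKM, footprints at 403.8 RPKM and density at 0.73. These chaperones also serve folding in the matrix, and both stood well above the membrane-bound motor subunits. PAM16 (YJL104W) had RNA at 114.0 RPKM, footprints at 162.5 RPKM and density at 0.80. PAM18 (YLR008C), the J-protein that stimulates Ssc1 and pairs with Pam16, had RNA at 113.8 RPKM, footprints at 120.0 RPKM and density at 0.36. TIM44 (YIL022W), the scaffold that tethers Ssc1 to the channel, had RNA at 102.0 RPKM, footprints at 102.3 RPKM and density at 0.29. In RNA these 3 subunits lay within 1.12-fold of each other, and in footprints within 1.59-fold.

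In the TIM22 translocase, which inserts carrier proteins into the inner membrane, footprints were more even than RNA. TIM22 (YDL217C), the channel, had 40.2 RPKM in RNA and 52.6 RPKM in footprints, and TIM18 (YOR297C) had 41.1 RPKM in RNA and 41.7 RPKM in footprints. TIM54 (YJL054W) had 89.7 RPKM in RNA, over 2 times that of either partner, but 38.2 RPKM in footprints. Its density of -0.95 was the lowest of the 32 members (chromosome X, 334265 to 335701), against 0.67 for TIM22 and 0.31 for TIM18. The range over the 3 genes was 2.23-fold in RNA and 1.38-fold in footprints.

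The small TIMs, soluble chaperones that carry hydrophobic precursors across the intermembrane space, had a median density of 0.91, with all 5 above the median gene. TIM8 (YJR135W-A) had 123.0 RPKM in RNA and 204.2 RPKM in footprints, and its partner TIM13 (YGR181W) had 143.8 RPKM in RNA and 221.7 RPKM in footprints. The 2 partners were thus within 1.09-fold in footprints, with densities of 1.02 and 0.91. TIM9 (YEL020W-A) and TIM10 (YHR005C-A), which form the other hexamer in equal numbers, were not so matched. TIM9 had 114.2 RPKM in RNA and 215.0 RPKM in footprints, and TIM10 had 459.2 RPKM in RNA and 575.5 RPKM in footprints, a 4.02-fold excess of TIM10 in RNA and a 2.68-fold excess in footprints. TIM12 (YBR091C), which docks the chaperones on the TIM22 translocase, had the least of the family, with RNA at 57.2 RPKM, footprints at 68.8 RPKM and density at 0.55.

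The MIA, MPP and SAM genes, apart from SAM35, had densities near the median gene. MIA40 (YKL195W) had 127.0 RPKM in RNA and 106.6 RPKM in footprints (density 0.03), and ERV1 (YGR029W) had 61.9 RPKM in RNA and 53.7 RPKM in footprints (density 0.08). MAS1 (YLR163C) and MAS2 (YHR024C), the beta and alpha subunits of the presequence peptidase, were matched in both libraries. They had 68.4 and 69.5 RPKM in RNA and 62.7 and 53.4 RPKM in footprints, with densities of 0.16 and -0.09. SAM50 (YNL026W), the beta-barrel that inserts other beta-barrels, had RNA at 40.5 RPKM, footprints at 31.95 RPKM and density at -0.06. SAM35 (YHR083W) had RNA at 89.1 RPKM, footprints at 47.9 RPKM and density at -0.61, and SAM37 (YMR060C) had RNA at 33.6 RPKM, footprints at 28.7 RPKM and density at 0.06. As with TIM54 in TIM22, the SAM subunit with the most RNA had the lowest density of its complex, and the range narrowed from 2.65-fold in RNA to 1.67-fold in footprints. RNA is the divisor of density, so these are not separate observations. Among complexes of at least 3 members, this pattern was absent in TOM, TIM23, PAM and the small TIMs. In PAM the subunit with the most RNA, SSC1, had the highest density (0.81).

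Both matrix chaperonin genes had high levels. HSP60 (YLR259C) had RNA at 940.1 RPKM, footprints at 1258 RPKM and density at 0.71. HSP10 (YOR020C) had RNA at 1024 RPKM, footprints at 1578 RPKM and density at 0.91. Both exceeded the 97th percentile of all analysed genes in RNA and in footprints, as did SSC1.

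**Figure D2:**
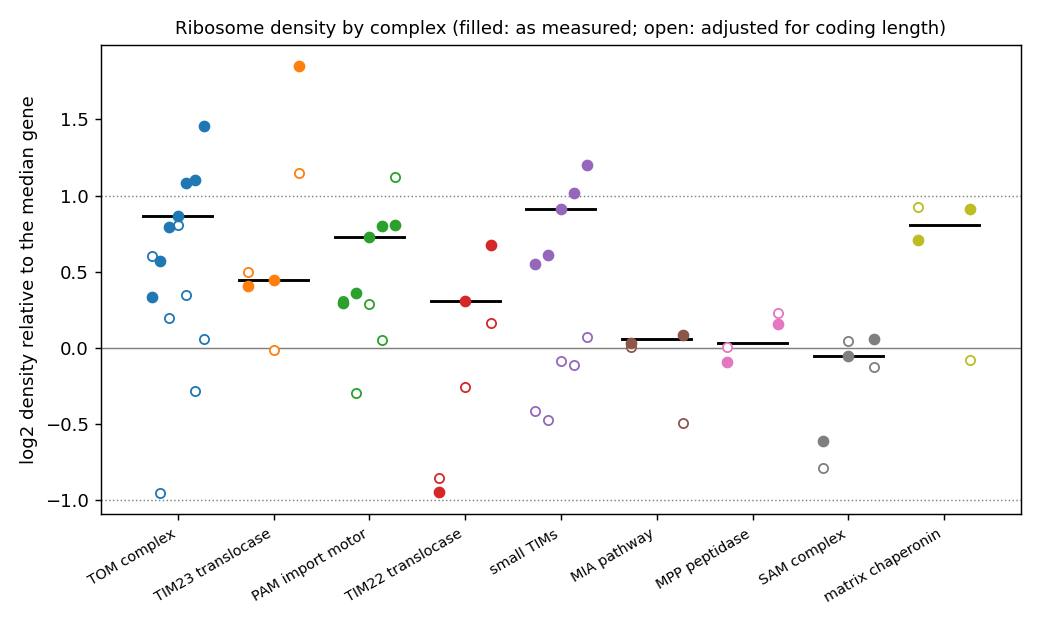
Log2 ribosome density relative to the median gene for each member (filled circles), with the complex median as a bar and the same genes after adjustment for coding length as open circles. Dotted lines mark 2-fold above and below the median gene. The TOM, small TIM, PAM and chaperonin medians lie between 0.73 and 0.91 as measured, and the MIA, MPP and SAM medians lie between -0.06 and 0.06.

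Set side by side, the median densities were 0.91 for the small TIMs, 0.87 for TOM, 0.81 for the chaperonin, 0.73 for PAM, 0.44 for TIM23, 0.31 for TIM22, 0.06 for MIA, 0.03 for MPP and -0.06 for SAM. These groups hold 2 to 7 genes each and their ranges overlap in part. Every TOM and small TIM gene lay above every MIA, MPP and SAM gene. The 3 member genes of TIM23, from 0.41 to 1.85, also lay above those 3 groups, while TIM22 genes, from -0.95 to 0.67, spanned them. TIM21, a subunit of the TIM23 translocase that is not among the members, was lower, at -0.48.

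Longer members tended to have lower density. Over all analysed genes density fell by 0.50 per doubling of coding length, and the Spearman rho between length and density was -0.61 over the 32 members and -0.62 over the 4642 genes. These are correlations across genes of 1 pair of libraries. A length that divides both RPKM values cancels in their ratio, but whether both were divided by the same length was not given. The cause of the trend was not tested. The 12 members under 500 nt had a median density of 0.96, against 0.85 for all 436 analysed genes of that length. The 9 members of 500 nt to 1000 nt had a median of 0.36, against 0.42 for all genes. Up to 1000 nt the members' medians were thus near those of all genes of like length. The 11 members of 1000 nt or more had a median of 0.29, against -0.28 for all genes of that length.

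**Figure D3:**
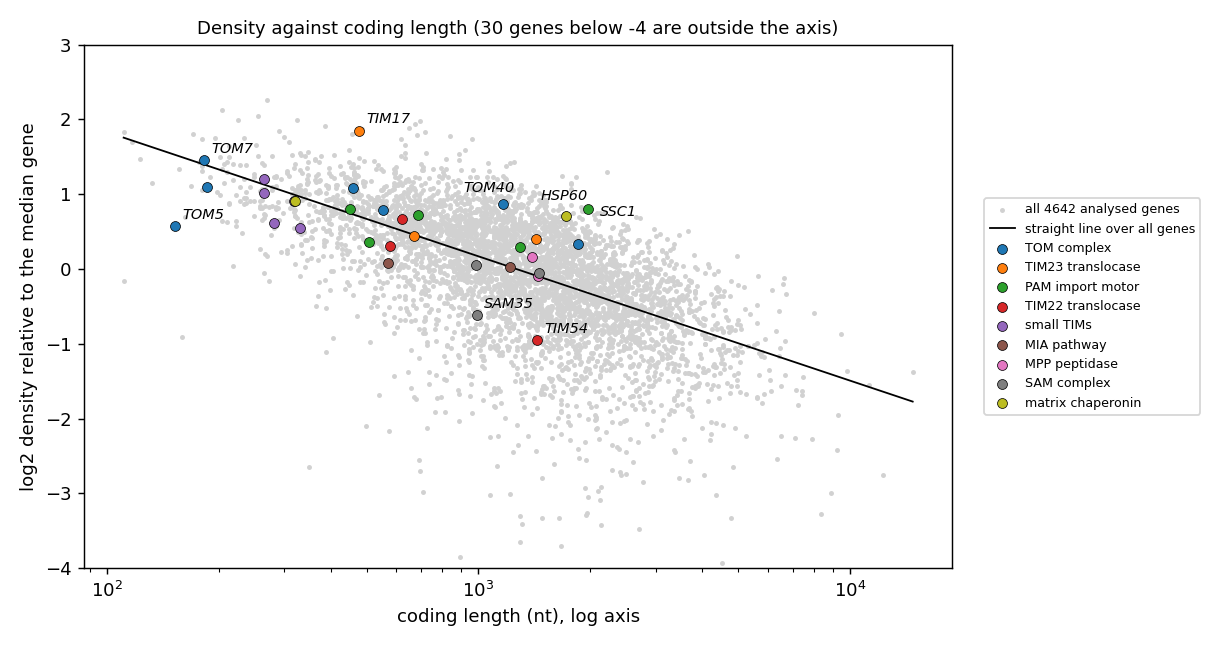
Log2 ribosome density against coding length in nucleotides on a log axis, for all 4642 analysed genes (grey; 30 of them lie below the axis) and the 32 members (coloured by complex), with the straight line over all genes. TIM17, SSC1, HSP60 and TOM40 lie well above the line, and TOM5, TIM54 and SAM35 well below it.

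After a straight-line adjustment for coding length, the members as a whole had a median of 0.02, and 18 of 32 lay above the median gene, beside the 50% of all genes that do so by construction. The order of complexes changed. TIM23 (0.49) and the chaperonin (0.42) were highest, followed by PAM (0.29), TOM (0.19), MPP (0.11), the small TIMs (-0.12), SAM (-0.12), MIA (-0.25) and TIM22 (-0.26). The small TIMs, highest as measured, were then the sixth. In adjusted density TIM17 (1.15) and SSC1 (1.12) passed 2-fold above the median gene, where 2.22% of all genes lie, and no member was more than 2-fold below, where 9.16% lie. HSP60 (0.93), TOM40 (0.81) and TOM70 (0.61) followed among the high members. TOM5 (-0.95), TIM54 (-0.85) and SAM35 (-0.79) were the lowest. TIM54 and SAM35 were low and TIM17 and SSC1 high by either measure, whereas TOM5 was above the median gene as measured. Adjusted for length and RNA together, TIM17 was at 1.18, TIM54 at -0.97 and SAM35 at -0.85, whereas SSC1 was at 0.23.

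Codon adaptation went with abundance among the members. This measure, the geometric mean of codon weights taken from cytosolic ribosomal protein genes, was above the median gene's 0.198 for 21 members. SSC1 (0.592), HSP60 (0.461) and HSP10 (0.389) had the highest values. TIM12 had the lowest, 0.0947, at percentile 0.345 of all analysed genes, although its density of 0.55 was above the median gene. PAM16 (0.146), TIM22 (0.158) and TIM23 (0.159) were next lowest. Across the 32 members the Spearman rho of codon adaptation was 0.84 with RNA and 0.53 with density, against 0.63 and 0.38 over all analysed genes.

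Ratios between partner subunits were set out for 10 pairs that act together, since footprints per length measure relative synthesis if elongation is alike. In footprints 5 pairs lay within 1.5-fold: TIM8 and TIM13, MAS1 and MAS2, HSP60 and HSP10, PAM16 and PAM18, and TOM40 and TOM22. In RNA too these pairs, and no others of the 10, lay within 1.5-fold. The ratio was closer to 1 in footprints than in RNA for 5 pairs and farther from 1 for the other 5. TIM17 over TIM23 went from 0.581 in RNA to 1.54 in footprints, the one pair of those outside 1.5-fold whose order turned. TIM9 over TIM10 went from 0.249 to 0.374, and SAM35 over SAM37 from 2.65 to 1.67. MIA40 over ERV1 was nearly the same in both, 2.05 and 1.99, as was SSC1 over MGE1, 3.85 and 4.07. None of these ratios is adjusted for coding length. Of the 5 pairs within 1.5-fold, HSP60 and HSP10 differed most in length-adjusted density. HSP60 minus HSP10 was 1.01 on that log2 scale, against -0.20 as measured.

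**Figure D4:**
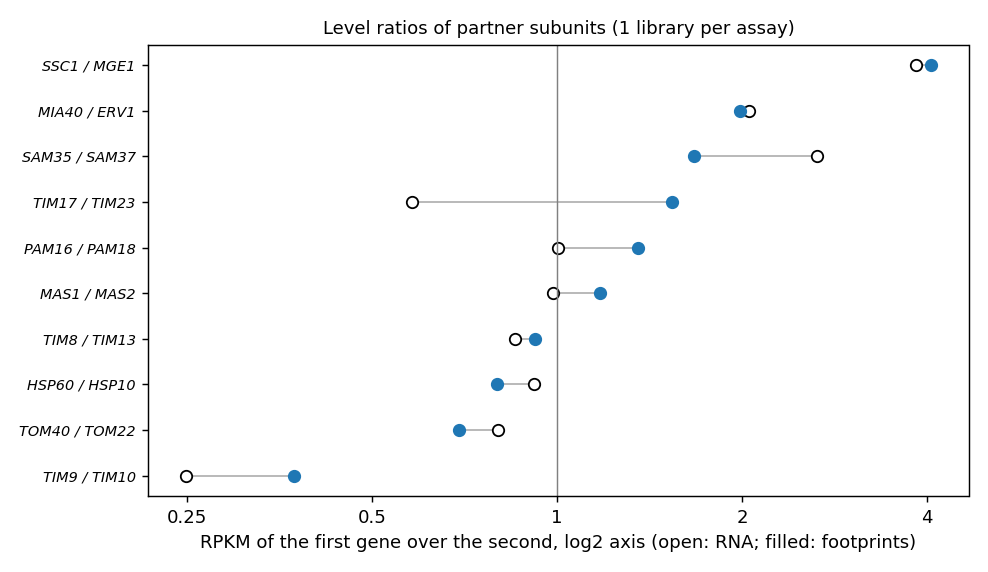
RPKM of the first gene over the second for 10 pairs of partner subunits on a log2 axis, in RNA (open circles) and footprints (filled circles), with 1 library per assay. TIM17 over TIM23 crosses the line of equality, from 0.581 in RNA to 1.54 in footprints, and TIM9 over TIM10 stays left of it in both.

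Among the 6 complexes with at least 3 members, the fold range narrowed from RNA to footprints in TIM22, SAM and TIM23 (1.72-fold to 1.67-fold) and widened in TOM (2.33-fold to 2.38-fold), PAM (11.2-fold to 16.0-fold) and the small TIMs (8.03-fold to 8.37-fold). Among subunits, log2 footprint had an SD of 0.24 in TIM22, 0.39 in SAM, 0.40 in TIM23, 0.51 in TOM, 1.09 in the small TIMs and 1.66 in PAM. Over all analysed genes it was 2.21. TIM22 was thus the complex with the most even footprint levels of the 6, and its densities had the widest spread, with an SD of 0.85.

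Related copies of members differ from them enough to be told apart by exact matches of footprint length. How reads were assigned between copies is not known, since the aligner and counting rule were not given. Of all runs of 28 bases in the members' coding sequences, a length near that of a footprint, none occurred elsewhere in the genome except 0.103% of those of SSC1. No member overlapped another gene of the annotation on either strand. ECM10, a close homolog of SSC1, had 9.36 RPKM in RNA and 1.01 RPKM in footprints, so SSC1 exceeded it 122-fold in RNA and 1625-fold in footprints. ECM10 was at percentile 0.592 of RNA among all analysed genes. Its small footprint value comes from 1 library of unknown depth, so its footprint ratio and density are uncertain. TOM71, the paralog of TOM70, had 83.6 RPKM in RNA and 52.9 RPKM in footprints, which TOM70 exceeded 2.64-fold and 4.31-fold. Both members thus had higher density than their copies, -2.93 for ECM10 and -0.38 for TOM71.

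Other genes of import, processing and quality control had a lower median density than the 32 members. Of 33 such genes 31 were listed. Their median density was -0.25, and 13 of the 31 lay above the median gene, where 50% of all genes lie. The Hsp40 gene YDJ1 (1.06) and MGR2, a small subunit of the TIM23 translocase (1.01), were more than 2-fold above, and ECM10 was more than 2-fold below. Of all analysed genes, 6.79% were more than 2-fold above and 13.1% more than 2-fold below. The proteases of the inner membrane AFG3 (-0.97) and YTA12 (-0.93) and the insertase OXA1 (-0.84) were next lowest. PAM17, a motor subunit, had a density of 0.73, near SSC1, PAM16 and MGE1 and above PAM18 and TIM44. TIM21, like MGR2 a subunit of the TIM23 translocase, had a density of -0.48, below TIM17, TIM23 and TIM50. These genes had a median coding length of 1230 nt against 601.5 nt for the members, and after adjustment for length the medians were -0.13 and 0.02.

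Beside other mitochondrial genes, the members' median density of 0.59 lay between those of 79 listed mitochondrial ribosomal protein genes (0.52) and 32 listed genes of the respiratory chain and ATP synthase (1.01). Median coding lengths were 654 nt and 417 nt in these lists. Adjusted for length the 3 medians were 0.02, 0.00 and 0.20. The 8 genes of the cytosolic chaperonin CCT, the counterpart of Hsp60 in the cytosol, had a median density of 0.33. Their median coding length was 1647 nt, and adjusted for length their median was 0.52, above the 3 medians just given. Median footprints were 267.1 RPKM per CCT gene, against 1258 RPKM for HSP60. This sets a median of 8 genes beside 1 gene and does not compare whole complexes. No test of these differences was possible with 1 library per assay.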

How the data were processed

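Per the labels, RNA-seq and ribosome profiling were each done on 1 library of BY4741 yeast. Per the file headers, the authors deposited RPKM values and the log2 of footprint over RNA RPKM for genes with at least 10 RPM of RNA and footprints above 0. The deposited log2 ratio equalled that of the RPKM columns within 1.63e-09. The submitters' processing notes name build sacCer3. The aligner, counting rule and use of strand were not given in the sources used here. Gene models and sequences came from RefSeq assembly R64, whose models hold no UTRs.

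Density was centred on the median ratio of 0.821 over 4642 genes with a mean of at least 5 RPKM, with no pseudocount. Length adjustment took residuals from a straight line on log2 coding length over these genes, recentred on their median. It was checked only on data simulated from such a line with normal noise. That check cannot show whether a straight line suits the measured densities. Among 77 genes under 3 RPM of footprints, no step size made over 40.7% of values whole within 0.1 reads, so depth stays unknown and no counting interval is given. Codon weights had 0.5 added to each count. CX3C, CX9C, CXXC and CPC were searched in translated coding sequences, N to C terminal, X being any residue and matches allowed to overlap. All members are named. Of the other import genes, those past 2-fold and the extremes are named, and PAM17, TIM21, TOM71, AFG3, YTA12 and OXA1 were chosen after their values were seen. Members, lists and tests were chosen with earlier results of these data known. Python 3.11.15, numpy 2.4.6 and pandas 2.3.3 were used.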

Additional observations from a re-analysis of the deposited data

How the results depend on the processing

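Without an expression filter, and with a pseudocount of 1 RPKM, each member's density and each complex median moved by less than 1.5-fold, the limit used for want of a replicate SD. The pseudocount moved each partner ratio by less than that too. The pseudocount changed one count, leaving 1 other import gene more than 2-fold above the median gene. With genes of at least 20 RPKM, 3 members were more than 2-fold above and 1 below, and of the other import genes 0 were above and 3 below. Centred on total footprints over total RNA, 2 members were above and 1 below, and 0 and 5 of the other import genes. That centring turned 8 members from positive to negative and the 20 RPKM limit 4. Adjusted for coding length, 2 members were more than 2-fold above and 18 above the median gene, the TOM median was 0.19 and that of the small TIMs -0.12, 12 of the 28 members with positive density turned negative, down to -0.95 for TOM5, among them TOM6 (-0.28) and TIM8 (-0.12), which had been past 2-fold, and 1 other import gene was above and 4 below. Adjusted for length and RNA, 1 member was above and 1 below 2-fold, 15 lay above the median gene, medians were 0.0200 for TOM, 0.0161 for PAM, -0.14 for the small TIMs, -0.30 for the chaperonin and -0.0345 for all members, 14 of the 28 turned negative, down to -1.20 for TOM5, among them TOM6 (-0.33), TOM7 (-0.0404) and TIM8 (-0.10), which had been past 2-fold, and 0 other import genes were above and 2 below. In the other direction, 2 members turned from negative to positive when adjusted for coding length, MAS2 (0.0034) and SAM50 (0.04). Adjusted for length and RNA, 1 member did, SAM50 (0.16). By construction both adjustments take out what goes with length or RNA over all analysed genes. Why single members moved was not tested. A quadratic in length, or a fit on genes of at least 20 RPKM, moved no complex median by 1.5-fold. Shares of all genes past 2-fold were worked out only for the main setting and the length adjustment. Counts under the other settings therefore have no such share beside them. No paired analysis was possible because each assay has 1 library and no replicate numbers.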
